A study of Mus musculus with 8 samples.

Results

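Proteases that work at the cell surface or in the surrounding matrix, and their inhibitors, were examined in CD4 single-positive (CD4SP) thymocytes with and without a targeted Pggt1b gene. The set holds 9 genes, Mmp9, Mmp14, Timp1, Timp2, Adam8, Adam10, Adam17, Adam19 and Adamts6, of the 22180 genes that the arrays measured with a probe set of 1 gene symbol. Mmp9 was chosen by its difference between the genotypes, the largest fall of all tested genes, so that its difference is given as a description with no test. The other 8 genes were added as its relatives and inhibitors with earlier results of these data known, and nothing is built on how many of them moved.

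The study asked how geranylgeranylation, the lipid modification for which Pggt1b encodes the catalytic subunit of the transferase, bears on thymocyte egress. Thymi of C57BL/6 mice were sorted for CD4SP cells, and RNA of 4 wild-type (WT) and 4 Pggt1b_KO (KO) samples was measured, 1 array per sample. Age, sex, the deleted part of the gene and the cells in which it was deleted are not stated in the sources used here. Nor is it stated whether each sample came from its own animal, and p-values therefore refer to the spread of these samples, which may be technical. Values are log2 intensities, and a difference of 1 is a doubling or halving of intensity.

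Matrix metalloproteinases (MMPs) are zinc enzymes that cut matrix proteins and surface molecules. MMP9 is a secreted gelatinase that opens basement membrane collagen, and MMP14 is a membrane-anchored collagenase that activates other MMPs. ADAM proteases sit in the membrane and release, or shed, the outer parts of receptors, ligands and adhesion molecules, and ADAMTS proteases are their secreted relatives. TIMP proteins block the active site of MMPs and of several ADAMs. T cells use such enzymes when they cross basement membranes and when they trim L-selectin, TNF or Notch from their surface.

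Promoter sequences were matched for 7 of the 9 genes, in 9 windows from RefSeq (GRCm38.p6), each taken here as the 250 bases before an annotated transcript start. Mmp9 and Adamts6 had no window, so their promoters were not searched for either motif. Those of Mmp14 and of the first 2 starts of Adam19 are shown because the transcripts of both genes fell in KO. All are 5′ to 3′ on the plus strand, with capitals for matches on either strand to the AP-1 motif TGANTCA or to the GC box GGGCGG.
Mmp14, chr14:54431348-54431597: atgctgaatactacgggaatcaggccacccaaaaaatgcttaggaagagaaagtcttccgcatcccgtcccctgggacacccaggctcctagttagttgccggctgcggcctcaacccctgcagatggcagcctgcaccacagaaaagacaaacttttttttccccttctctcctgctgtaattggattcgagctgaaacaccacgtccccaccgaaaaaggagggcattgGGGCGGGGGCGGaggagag
Adam19 first start, chr11:46054252-46054501: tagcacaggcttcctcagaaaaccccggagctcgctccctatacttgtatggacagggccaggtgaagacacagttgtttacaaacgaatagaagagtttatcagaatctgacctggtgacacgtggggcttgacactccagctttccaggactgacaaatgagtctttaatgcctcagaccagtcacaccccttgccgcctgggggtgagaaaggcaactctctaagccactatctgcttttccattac
Adam19 second start, chr11:46055734-46055983: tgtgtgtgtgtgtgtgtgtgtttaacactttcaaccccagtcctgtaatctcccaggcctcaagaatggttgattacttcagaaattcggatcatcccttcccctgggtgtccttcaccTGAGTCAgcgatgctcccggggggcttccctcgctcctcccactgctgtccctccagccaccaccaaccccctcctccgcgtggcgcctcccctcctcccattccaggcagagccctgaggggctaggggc
The Mmp14 window holds 2 adjacent GC boxes, 19 and 13 bases before the start. The second Adam19 window holds an AP-1 match 131 bases before its start, and the first holds neither motif. Over all 32851 windows of this length 6.75% hold the AP-1 motif and 32.7% the GC box. Windows of 6 of the 7 genes hold a GC box, those of Adam10, Adam17 and Timp2 among them, and 1 of the 7 genes, Adam19, holds the AP-1 motif. These matches are letters only, and binding was not measured.

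All arrays had medians between 5.52 and 5.59, and none held the same values as another. Genes whose mean over all arrays reached the median of all probe sets, a log2 value of 5.56, were tested, 11585 in all, and 8 of the 9 genes passed. Timp1 lay below this level and was not tested. The knockout label was checked on Pggt1b, which stood at 8.36, 8.38, 8.29 and 8.36 in WT and at 7.89, 7.57, 7.69 and 7.86 in KO (difference -0.59 ± 0.072 SE, limma, Benjamini-Hochberg adjusted p = 0.00141). Of the CD4SP markers, 9 were measured and all 9 were tested, with list means of 11.16 to 11.21 in WT and 11.09 to 11.13 in KO, lower in KO without overlap. Cd4 itself lay between 12.19 and 12.34 on every array, and Gata3, a factor of the CD4 lineage, was the 1 called marker of the list (log2 -0.26, limma, adjusted p = 0.0144). Cells of a given type being fewer cannot be told apart in such bulk samples from less RNA per cell.

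Beside Mmp9, 7 genes were tested, and transcripts of 3 of them, Mmp14, Adam19 and Adamts6, were lower in KO by the fit over all genes (limma, adjusted p under 0.05), while 0 were higher (0 also at an unadjusted p under 0.05). Among all tested genes 13.0% were called, 8.53% as lower and 4.45% as higher. With each array centred on its median the split over all genes moved from 515 higher and 988 lower to 383 and 1321, and Mmp14, Adam19 and Adamts6 were called lower there too. Lower calls did not outnumber higher ones in every fit, with 325 higher and 254 lower over all probe sets, 134 and 120 without KO replicates 1 and 2, and 150 and 145 without WT replicates 2 and 3. In Mmp9 and these 3 genes every KO array was lower than every WT array, which held for 13.5% of all tested genes, while in 6.79% the KO arrays were all higher. Because Mmp9 was taken for this contrast and the others were added with results known, these shares are given for scale alone.

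**Figure D1:**
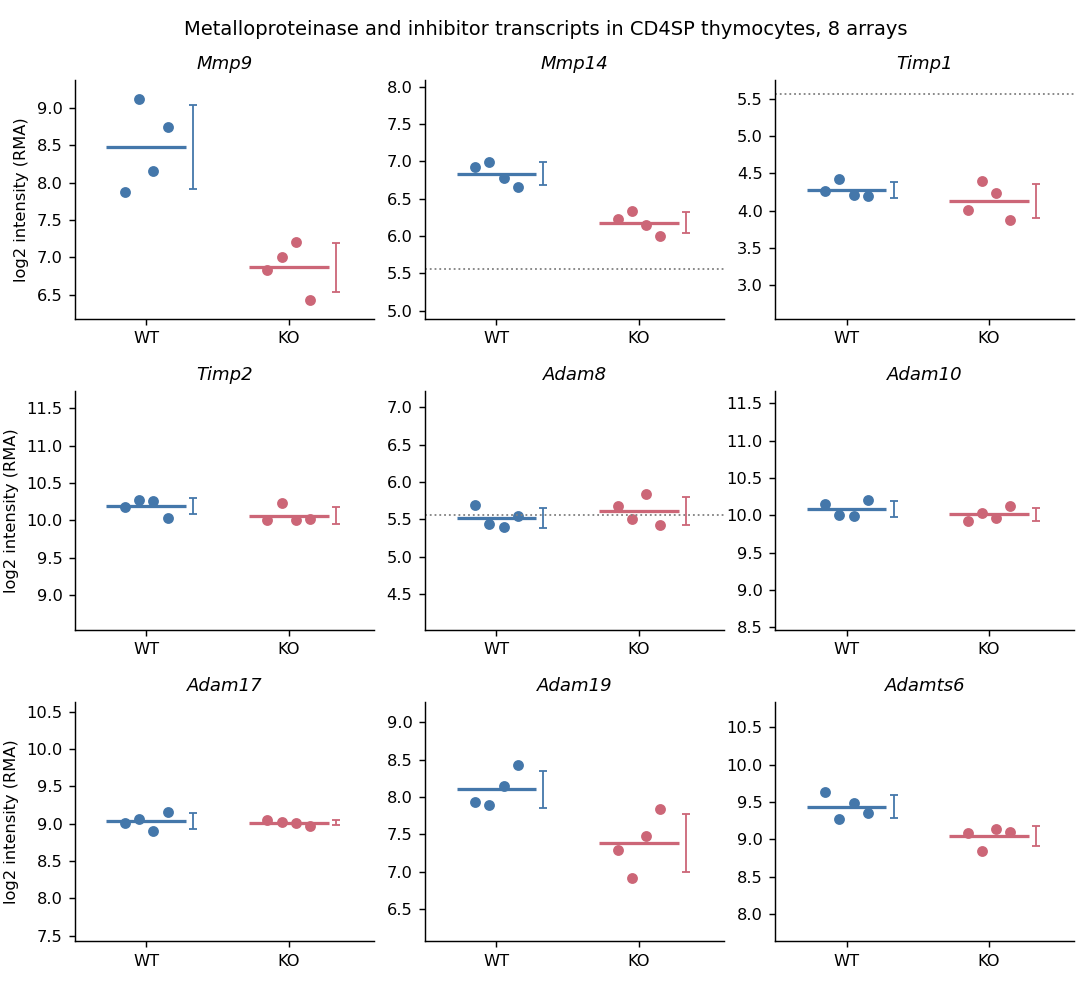
Log2 intensity (RMA) of the 9 genes in 4 WT and 4 KO arrays, 1 point per array, with the mean as a line and the SD as a bar; every panel spans the same number of log2 units and the dotted line is the intensity filter at 5.56. WT and KO points do not overlap for Mmp9, Mmp14, Adam19 and Adamts6, and overlap for the other 5 genes.

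The gelatinase gene Mmp9 stood at 7.87, 9.13, 8.16 and 8.75 in WT and at 6.83, 7.001, 7.21 and 6.43 in KO. WT replicates 2 and 4 were the high arrays of their genotype and KO replicate 4 the low one of its own, and the lowest WT array still lay 0.67 above the highest KO array. The means were 8.48 ± 0.57 in WT and 6.87 ± 0.33 in KO (SD, n = 4 each), a difference of -1.61 ± 0.26 SE, or 3.05-fold lower in KO. Mmp9 was also among the most variable transcripts within a genotype, with a pooled SD of 0.46 log2 at the percentile 99.6 of all tested genes, whose median SD was 0.098. Leaving out any single array gave differences from -1.81 to -1.39.

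Mmp14, which encodes the membrane-anchored collagenase, stood at 6.92, 6.99, 6.78 and 6.65 in WT and at 6.23, 6.33, 6.15 and 6.00 in KO. The arrays of each genotype lay close together, with SDs of 0.15 in WT and 0.14 in KO, and the genotypes were 0.32 apart at their nearest arrays. The transcript fell by 0.66 ± 0.090 SE on the log2 scale, or 1.58-fold (limma, adjusted p = 0.00224). This call held in all 20 alternative fits, with differences from -0.76 to -0.60.

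Adam19, whose product is a membrane protease of the shedding family, stood at 7.93, 7.89, 8.15 and 8.43 in WT and at 7.29, 6.91, 7.47 and 7.84 in KO. KO replicate 2 was lowest, and KO replicate 4 came within 0.052 of the lowest WT array. The fall was 0.72 ± 0.185 SE on the log2 scale, or 1.65-fold (limma, adjusted p = 0.0326). On leaving out WT replicate 3 or 4, or KO replicate 1, 2 or 3, the call was lost (adjusted p from 0.0604 to 0.0839), as it was with a heat-shock covariate (log2 difference -0.67, adjusted p = 0.0834). Leaving out single arrays gave log2 differences from -0.876 to -0.565. It was also lost with no intensity filter (adjusted p = 0.0504), with all probe sets tested (0.127), without WT replicates 2 and 3 (0.127) and without KO replicates 1 and 2 (0.204), where the log2 difference was -0.44. A second, dimmer probe set of Adam19 lay below the filter, at 4.34, 4.57, 4.86 and 4.48 in WT and 4.302, 4.22, 4.42 and 4.39 in KO, and its genotypes overlapped. Over the mean of both probe sets the log2 difference was -0.47, and the call was kept (adjusted p = 0.0324).

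Adamts6, a secreted ADAMTS protease, stood at 9.63, 9.28, 9.49 and 9.35 in WT and at 9.09, 8.85, 9.14 and 9.10 in KO. The genotypes were 0.14 apart at their nearest arrays, and KO replicate 2 was the lowest. Its fall was 0.39 ± 0.090 SE on the log2 scale, or 1.31-fold (limma, adjusted p = 0.0211). The call was lost on leaving out WT replicate 3 (adjusted p = 0.0553), with the heat-shock covariate (log2 difference -0.355, adjusted p = 0.0590), with all probe sets tested (0.0973), without WT replicates 2 and 3 (0.0751) and without KO replicates 1 and 2 (0.148).

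Hspa1a and Hspa1b, heat-shock genes induced by stress of cells, served as that covariate because they differed among arrays. Their mean was 5.27, 6.36, 8.58 and 6.74 in WT and 10.34, 9.79, 4.57 and 8.25 in KO. KO replicate 3 had the lowest heat-shock level of all arrays. Among the KO arrays it was the highest for Mmp9 and Adamts6, the second highest for Adam19 and the third for Mmp14. With the covariate the log2 differences of Mmp9 and Mmp14 were -1.55 and -0.67. The part of heat shock in these differences was not tested further.

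The general sheddases of T cells were not called. Adam10, which cuts Notch receptors, stood at 10.15, 10.01, 9.99 and 10.21 in WT and at 9.93, 10.03, 9.97 and 10.13 in KO. Its genotypes overlapped, with a difference of -0.07 (95% interval -0.225 to 0.0775, limma, adjusted p = 0.516). Adam17, which releases TNF and L-selectin, stood at 9.01, 9.06, 8.90 and 9.15 in WT and at 9.04, 9.02, 9.01 and 8.96 in KO. Here every KO array lay inside the WT range, and the interval of the difference ran from -0.154 to 0.111 (adjusted p = 0.851). Adam8, a protease best known from leukocytes of the myeloid lineage, lay at the filter, with WT arrays at 5.40 to 5.68 and KO arrays at 5.42 to 5.84 (interval -0.123 to 0.315, adjusted p = 0.565). It dropped under the filter, and so out of the test, without WT replicate 1 or KO replicate 1 or 3.

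Neither inhibitor gave a called difference. Timp2, which blocks MMPs and also takes part in activation of MMP2 by MMP14, stood at 10.18, 10.27, 10.27 and 10.04 in WT and at 10.0002, 10.23, 10.0011 and 10.02 in KO. KO replicate 2 stood apart from the other KO arrays, inside the WT range. The difference was -0.13 (interval -0.290 to 0.0391, limma, adjusted p = 0.294). Timp1, the inhibitor that binds secreted MMP9, was weak, with WT arrays at 4.19 to 4.43 and KO arrays at 3.88 to 4.40. The 2 genotypes overlapped, and so low a signal could hide a change.

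**Figure D2:**
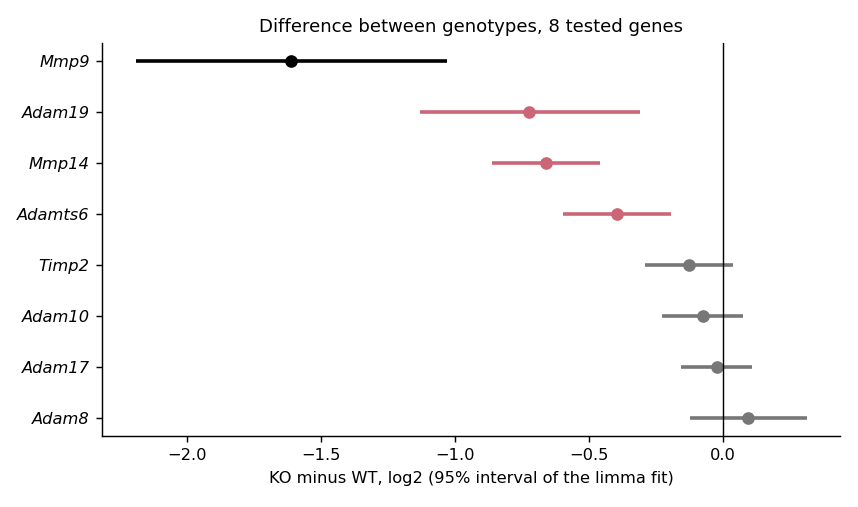
Difference of KO from WT (log2) for the 8 tested genes, with the 95% interval of the limma fit. Mmp9, in black, was chosen by this difference; Adam19, Mmp14 and Adamts6, in red, were called lower and the 4 genes in grey were not called.

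The wider families were mostly at low intensity. Of 20 other MMP genes measured 4 reached the filter, and of these 0 rose and 0 fell, at an unadjusted p under 0.05 as well (limma). Mmp24 stood at 0.09 and Mmp17 at -0.03 log2 (adjusted p = 0.468 and 0.800). Of 29 other ADAM genes 7 were tested and 0 were called (1 at an unadjusted p under 0.05, limma), with Adam15 at -0.15 (adjusted p = 0.166) and Adam12 at -0.17 (0.234). Of 17 other ADAMTS genes 4 were tested, and Adamts10 rose 1.29-fold (limma, adjusted p = 0.0233) while 0 fell (1, Adamts3, at an unadjusted p under 0.05). The KO mean of Adamts3, 5.41, lay below the filter, which it passed through its WT arrays (mean 5.86). Adamts10 stood at 9.20, 9.51, 9.33 and 9.30 in WT and at 9.82, 9.50, 9.77 and 9.74 in KO, so that KO replicate 2 overlapped with WT. Leaving out WT replicate 3 or KO replicate 1, 3 or 4 ended the call (adjusted p from 0.0534 to 0.0676). Among the 20 alternative fits the Adamts10 call held in 11. Reck, a membrane inhibitor of MMPs, was the 1 tested gene of the other inhibitors, at -0.13 (adjusted p = 0.440).

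Genes that work with these proteases were counted in lists chosen by function. Together with the relatives above they hold 155 genes, of which 76 were tested, 8 fell and 5 rose. These are 10.5% and 6.58% of those tested, beside 8.53% and 4.45% of all genes, and their median difference was -0.02 beside -0.03. As a group they therefore lay near the background, and single genes are given for what they do.

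Among escorts and activating convertases of ADAM10 and ADAM17, 8 genes were tested and 1 fell. That was Tspan5, a tetraspanin that accompanies ADAM10, by 1.18-fold (limma, adjusted p = 0.0389). This call was kept on leaving out WT replicate 3 and lost on leaving out any other single array (adjusted p from 0.0637 to 0.101). It held in 7 of 20 alternative fits. Rhbdf2, the iRhom that carries ADAM17 to the surface, stood at 0.07 log2 (adjusted p = 0.486) and the convertase Furin at 0.09 (0.258), both named after their values were seen.

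Of 10 tested surface partners of MMP9 and TIMP1, 1 fell, the hyaluronan receptor Cd44, which can hold MMP9 at the cell surface. Cd44 stood at 6.92, 7.37, 6.80 and 7.12 in WT and at 6.01, 5.89, 6.38 and 6.25 in KO. No KO array reached a WT array, and the fall was 1.90-fold (log2 -0.92 ± 0.14 SE, limma, adjusted p = 0.00342). It was highest in WT replicates 2 and 4, as Mmp9 was, and the share of all tested genes with this order was not counted. Leaving out KO replicates 1 and 2 together raised its adjusted p to 0.0541. Lrp1, an endocytic receptor that clears MMP9, stood at -0.20 (adjusted p = 0.0741), and was named after its value was seen. Its KO mean of 5.551 lay just below the filter, which it passed through its WT arrays (mean 5.753).

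Molecules that these enzymes shed moved both ways, with 4 of 17 tested lower and 1 higher. Besides Cd44 the transcripts of 3 members of the TNF system fell, Tnf itself 1.71-fold (adjusted p = 0.0134), Tnfsf11, the ligand RANKL, 1.38-fold (0.00938) and the TNF receptor Tnfrsf1b 1.30-fold (0.00428). In all 3 the genotypes did not overlap. Il6ra, the interleukin-6 receptor subunit cut by ADAM10 and ADAM17, rose 1.44-fold, from 10.44, 10.45, 10.51 and 10.49 in WT to 11.03, 11.01, 10.89 and 11.08 in KO (limma, adjusted p = 0.000447). Notch1, the ADAM10 substrate, lay between 10.06 and 10.24 in WT and between 10.03 and 10.20 in KO (adjusted p = 0.941). The calls of Tnf and Tnfsf11 ended with all probe sets tested, without WT replicates 2 and 3 and without KO replicates 1 and 2, and that of Tnfrsf1b in the last of these. The Il6ra call held in all 20 alternative fits.

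Of 7 secretase genes tested, whose products cut what shedding leaves in the membrane, 1 rose. Psen2, a catalytic subunit of gamma-secretase, went up 1.31-fold (limma, adjusted p = 0.00777), with no overlap of the genotypes, a call lost without WT replicates 2 and 3 or KO replicates 1 and 2. Of 5 other surface peptidases 1 rose and 2 fell. Dpp4, the dipeptidyl peptidase CD26 of T cells, rose 1.45-fold, from 9.85, 9.81, 9.92 and 9.78 in WT to 10.43, 10.40, 10.18 and 10.48 in KO (adjusted p = 0.00181), and was called in all 20 alternative fits. The carboxypeptidase gene Cpd fell 1.31-fold (adjusted p = 0.0173) and the endothelin-converting enzyme Ece1 1.17-fold (0.0313). The Cpd call ended with all probe sets tested (0.0841), without WT replicates 2 and 3 (0.0918) and without KO replicates 1 and 2 (0.0877). With a filter at a mean log2 of 6 Cpd was not tested. The Ece1 call held on leaving out WT replicate 4 or KO replicate 4 and ended on leaving out any other single array (adjusted p from 0.0597 to 0.0729). It held in 8 of 20 alternative fits.

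Of 14 tested transcription factors known to act on the Mmp9 promoter 1 rose and 1 fell. Jun, a subunit of AP-1, stood at 8.52, 9.44, 8.96 and 9.15 in WT and at 10.16, 10.02, 9.32 and 10.20 in KO, a rise of 1.88-fold (limma, adjusted p = 0.0288). KO replicate 3 lay within the WT range, and it was also the KO array with the lowest heat-shock level. With that level as a covariate the log2 difference of Jun moved from 0.91 to 0.72 with an adjusted p of 0.0573. On leaving out WT replicate 1 or 3, KO replicate 1, 2 or 4 singly the adjusted p was 0.0518 to 0.0792. The Jun call held in 9 of 20 alternative fits. Nfkb2, an NF-kB subunit, fell 1.25-fold (adjusted p = 0.0381), a call kept on leaving out WT replicate 1 or KO replicate 4 and lost for each of the other arrays (0.0678 to 0.0783). That call held in 8 of 20 alternative fits.

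**Figure D3:**
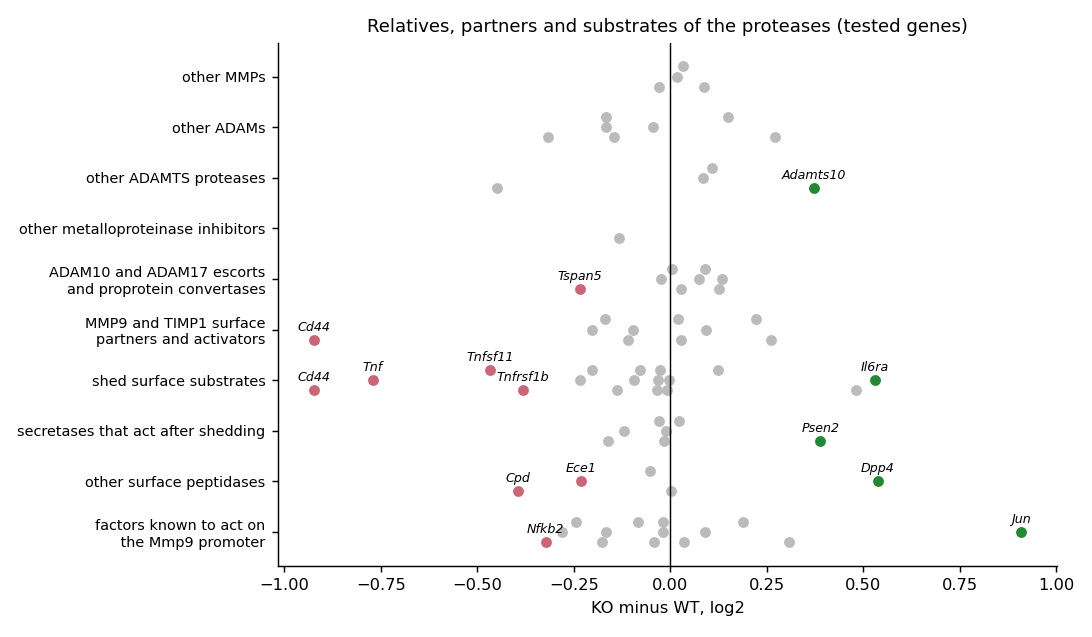
Difference of KO from WT (log2) for the tested genes of 10 lists of relatives, partners, substrates and regulators, 1 point per gene, in red where called lower, green where called higher and grey where not called. Cd44, in 2 lists, lies farthest to the left and Jun farthest to the right.

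Genes with an Mmp9-like profile were sought over the 8 arrays, by the root mean square difference between profiles centred on each gene's mean. The 6 nearest were Egln3, a prolyl hydroxylase of the hypoxia response, at 0.40 log2, Cap2, an actin-binding protein, at 0.46, Pld4, an endolysosomal nuclease, at 0.47, Cd44 at 0.47, Tmem35a, a receptor chaperone, at 0.48 and Lzts1 at 0.49. Among the genes of the set Mmp14 came nearest, at 0.61, followed by Adam19 at 0.70. Since large falls between genotypes make profiles alike, the ranking describes these arrays. Cap2 stood at 7.61, 8.14, 7.78 and 8.65 in WT and Lzts1 at 8.84, 9.18, 8.64 and 9.30. Both were higher in WT replicates 2 and 4 than in the other WT arrays. So were Pld4, Cd44 and, by little, Tmem35a (8.26 in WT replicate 4 and 8.25 in WT replicate 3). These genes were picked for their likeness to Mmp9, which favours a shared order. Egln3, the nearest of all, did not share this order, with 8.39, 8.67, 8.39 and 8.34 in WT and replicate 4 the lowest. Nor did Adam19, since WT replicate 2 was its lowest WT array.

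**Figure D4:**
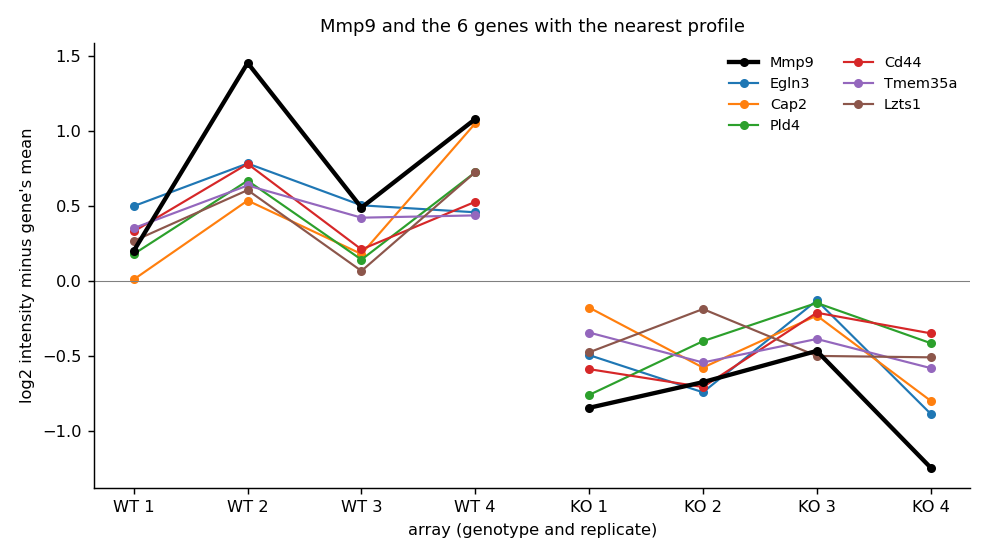
Log2 intensity minus the gene's mean over the 8 arrays for Mmp9 (black) and the 6 genes with the nearest profile; lines only join the points of a gene, and replicates have no order. Mmp9 spans the widest range, and all 6 genes are highest in WT replicate 2 or 4.

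Cells other than CD4SP thymocytes can carry these transcripts, so marker lists were read beside them. Of 12 neutrophil markers, the cells best known for stored MMP9, 11 lay below the filter, S100a8, S100a9 and Ly6g among them, and the list mean was 4.71 to 4.79 in WT arrays and 4.73 to 4.81 in KO arrays. Of 9 monocyte and macrophage markers 6 lay below the filter, with list means of 5.41 to 5.57 in WT and 5.26 to 5.62 in KO. Dendritic cell markers, 7 of 11 below the filter, ran from 5.42 to 5.54 and from 5.44 to 5.53, and B cell markers, 5 of 6 below it, from 5.18 to 5.28 and from 5.14 to 5.33. In these 4 lists 0 tested markers were called (limma, and 0 at an unadjusted p under 0.05), and the genotypes overlapped. Epithelial, stromal and endothelial markers of the thymus, whose cells commonly express Mmp14, lay below the filter for 6 of 11, with list means of 5.90 to 5.95 in WT and 5.87 to 5.95 in KO. Of their 5 tested markers 1 was called, Pecam1, which rose, with WT arrays at 10.59 to 10.84 and KO arrays at 10.88 to 10.98. Among the list's other endothelial markers Cdh5 was not called (log2 0.09, limma, adjusted p = 0.603), and Kdr lay below the filter at a mean of 4.63. Pecam1 was far brighter than every other marker of the list. Its level and its rise therefore weigh on the list means, which were not taken without it.

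Lymphoid markers did move. Innate-like and effector T cell markers, 6 of 10 at or above the filter, had means of 5.56 to 6.17 in WT and 5.76 to 5.90 in KO, which overlapped. The overlap rested on Klrd1, a lectin-like receptor of NK cells and cytotoxic T cells, which rose 7.49-fold (limma, adjusted p = 0.000145), from 4.65, 4.85, 4.71 and 5.90 in WT to 7.93, 7.78, 7.82 and 8.20 in KO. Its WT mean of 5.03 lay below the filter, which it passed through its KO arrays, so the fold rests on a weak WT level. Without Klrd1 the means of the other 9 markers were 5.66 to 6.20 in WT and 5.54 to 5.65 in KO, lower in KO without overlap. The median difference of the 6 tested markers, Klrd1 included, was -0.325. Within the list Zbtb16, the factor PLZF of innate-like T cells, fell 1.61-fold (limma, adjusted p = 0.0453) and Nkg7, a gene of cytotoxic granules, 1.78-fold (0.0179). Zbtb16 stood at 6.00, 6.48, 5.97 and 6.98 in WT and at 5.62, 5.81, 5.60 and 5.64 in KO. It was highest in WT replicates 2 and 4 as Mmp9 was. Nkg7, Tbx21, Klrd1, Eomes, Gzma and Gzmb of the same list shared this order, and Ccl5, Klrb1c and Ifng did not. Of the sharers, Tbx21 (log2 -0.37, limma, adjusted p = 0.108) and Eomes (log2 -0.01, adjusted p = 0.971) were not called. Gzma, Gzmb, Klrb1c and Ifng lay below the filter. The share of all tested genes with this order was not counted. Regulatory T cell markers, all 7 of 7 measured at or above the filter, had means of 8.38 to 8.56 in WT and 8.27 to 8.43 in KO, with a median difference of -0.29. Of these markers 1 was called, Tnfrsf18, the receptor GITR, which fell 1.25-fold with no overlap (limma, adjusted p = 0.00979), and 3 of the 7 were lower at an unadjusted p under 0.05. Foxp3, the factor that defines these cells, was not called (0.17, adjusted p = 0.505). Lists of the CD8 lineage (9.42 to 9.68 in WT, 8.90 to 9.33 in KO, 3 markers) and of double-positive thymocytes (7.99 to 8.31 and 7.62 to 7.97, 5 markers) were lower in KO without overlap. The 2 lists share Cd8a and Cd8b1, and Cd8a was the 1 called gene of either (1.67-fold lower, limma, adjusted p = 0.0354). Without Cd8a the double-positive means overlapped, at 7.67 to 7.93 in WT and 7.47 to 7.69 in KO, and those of the 2 other CD8 lineage markers did not, at 9.48 to 9.63 and 9.23 to 9.45. The part of such cells in the falls of Mmp9, Mmp14, Adam19 and Adamts6 was not tested.

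**Figure D5:**
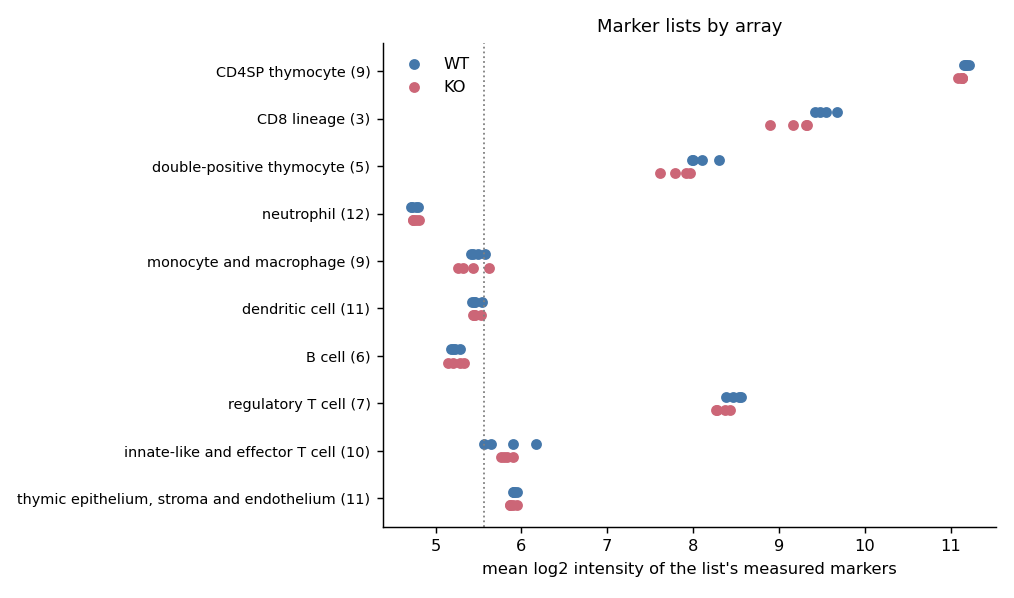
Mean log2 intensity of the measured markers of 10 cell type lists, with the number of markers in brackets, 1 point per array, WT in blue and KO in red; the dotted line is the intensity filter. Neutrophil, B cell and dendritic cell means lie below the filter, and the CD4SP, CD8 lineage and double-positive means are lower in KO without overlap, the last of these overlapping once Cd8a is left out.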

How the data were processed

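The authors deposited log2 intensities of Mouse Gene 2.0 ST arrays at the gene level. Per the submitters' processing notes, RMA was run in Affymetrix Expression Console 1.1. RNA was amplified from nanogram amounts, per the labels' protocols. Genome build and earlier filters are not stated in the sources used here. The table holds 41345 probe sets, of which 23521 have 1 gene symbol in the platform annotation. The brightest probe set over all 8 arrays stood for a gene, and genes with a mean of at least 5.56 (the median of all probe set means) were tested.

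KO was compared with WT over all 11585 tested genes with lmFit and eBayes of limma 3.58.1 (R 4.3.3, genotype only, two-sided) with Benjamini-Hochberg adjustment, and called at an adjusted p under 0.05. In data simulated from these arrays (11585 genes, 200 changed) 84.0% of genes changed by 0.5 log2 and 100% of those changed by 1 log2 were recovered, with 12 false calls. The simulated noise was drawn for each gene on its own, without variation shared by the genes of an array. Fewer genes were changed there than the 1503 called here, so these shares need not hold for the real arrays. The members and lists were chosen with earlier results of these data known. Named are all 9 genes, every called gene of a partner list (the 2 with the lowest p where none was called) and the 6 nearest profiles, leaving out predicted, small RNA and receptor segment genes. Cell type markers, Notch1 and others said to be so were named outside this rule, after their values were seen, and list means without Cd8a or Klrd1 were added then too. The number of arrays limits the precision. Alternatives were other filters, scalings, weights, priors, a heat-shock covariate and left-out arrays. Nothing in the labels pairs the samples.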

Additional observations from a re-analysis of the deposited data

Results flagged for a closer look

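Of 18 groups of 4 arrays examined, 2 for each of the 9 genes, 1 held an array far from the others. In the KO arrays Timp2 stood at 10.23 in replicate 2 and at 10.0002 to 10.0207 in the other 3, a gap that took up 0.912 of the group's range, above Dixon's 95% limit for 4 samples. Chance alone marks about 1 in 20 groups in this way.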

How the results depend on the processing

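No paired analysis was possible because the labels give no replicate number shared by the genotypes. The call of Mmp14 held in all 20 alternatives, and Timp2, Adam10 and Adam17 were called in 0 of 20; calls of Adam19 held in 9 of 20 and of Adamts6 in 14. Calls and counts changed as follows, with the cause not tested except that left-out arrays leave fewer samples and a filter changes the genes adjusted over. Mmp9 was chosen by its fall, so its calls are left out here. Of the 3 other members called lower, Mmp14 alone was kept with all probe sets, at an adjusted p under 0.01 and with the heat-shock covariate. The same held without WT replicate 3, without WT replicates 2 and 3 and without KO replicates 1 and 2. Adam19 alone was lost with no filter and without WT replicate 4 or KO replicate 1, 2 or 3. In every fit 0 members were called higher. Partner genes lower, 8, became 5 with no filter, 2 with all probe sets, 3 at 0.01, 5 with the covariate, 2 without WT replicates 2 and 3, 1 without KO replicates 1 and 2, and 5 to 7 without single arrays. Partner genes higher, 5, became 3 with all probe sets, 3 at 0.01, 2 without either pair, and 3 to 6 without single arrays. Of all genes, 1503 called became 920 with no filter, 579 with all probe sets, 446 at 0.01, 874 with the covariate, 295 and 254 without the WT and the KO pair, and 813 to 1450 without single arrays. Levels near the filter, as of Timp1 and Adam8, limit what could be seen.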
